A study of Mus musculus with 22 samples.

Results

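Solute carriers are membrane proteins that move sugars, amino acids, organic ions, vitamins, metals and metabolites across cell and organelle membranes, and their genes are named Slc with a family number. The genes described here are the 92 expressed Slc genes of mouse liver: those whose symbol, found by Entrez ID, begins with Slc and a digit and whose mean log2 value over all 22 arrays was 4 or more. They were 92 of 271 measured Slc genes, and the other 179 lay below that level, while 2 Slc genes (Slc1a2 and Slc30a10) were left out by name. Over the series, 3880 of 13392 genes reached the same level. The members were thus chosen by their mean level, which is given only as a description. The last genes above the level were Slc12a2 (mean 4.01), Slc5a3 (4.02) and Slc7a7 (4.10), and the first below it were Slc39a6 (3.92), Slc1a4 (3.90) and Slc25a34 (3.86). All 3 group means were 4 or more for 84 members, and at least 1 group mean was under 4 for 8 members. Those 8 were Slc5a3, Slc5a6, Slc7a7, Slc12a2, Slc16a5, Slc25a36, Slc26a6 and Slc35a4, which reached the level through the other groups. Among the genes below the level, Slc22a29 and Slc22a15 averaged 4.37 and 4.10 in the controls. One member, Slc7a6os, has the family name in its symbol without being a carrier and is counted only because the rule admits it.

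RNA was taken from 20 mg of frozen liver outside tumours of male C57BL/6J mice. Liver damage came from 1 injection of N-nitrosodiethylamine (DEN), a liver carcinogen, and then weekly carbon tetrachloride (CCl4), a hepatotoxin that causes fibrosis. In this model 10 mice (numbers 82 to 91) received nintedanib, an inhibitor of several receptor tyrosine kinases, at 50 mg/kg, and were labelled as treated for 5 weeks. Another 9 model mice (76 to 81 and 92 to 94) received vehicle for 5 weeks, and 3 healthy controls (4, 49 and 50) had saline and oil in place of the toxins and carry vehicle in their titles. The damage is chemical and every sample is whole tissue, so that fewer cells of a type and less RNA per cell cannot be told apart. Values are log2 array levels, 1 probe set for each gene, and no level of one gene is set against that of another.

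A liver takes up many of the compounds it processes through solute carriers. Hepatocytes face the blood with carriers for organic anions and cations, sugars and amino acids, and their mitochondria exchange nucleotides and cofactors with the cytosol through the Slc25 family. Many carriers are known to follow the daily rhythm of feeding and the clock, and several are known to be lower in injured or inflamed liver.

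The series as a whole sets 2 limits. The mouse numbers fall into 2 runs that differ in genes of the daily clock: the clock output gene Dbp averaged 9.18 ± 0.11 in vehicle mice 92 to 94 and 5.41 ± 0.37 in vehicle mice 76 to 81 (SD, n = 3 and 6), and the clock activator Arntl averaged 3.21 ± 0.31 and 6.04 ± 0.10. Mouse 82, given nintedanib, lay near the earlier run at 6.19 (Dbp) and 6.01 (Arntl). The first run (controls and mice 76 to 82) holds 6 of 9 vehicle mice and 1 of 10 nintedanib mice, so treatment and run overlap. The labels name no batch, and the boundary was known from earlier results of these data. The controls were placed in the first run because their numbers are under 83, and no label groups them with mice 76 to 82. Their Dbp and Arntl averaged 5.6 and 6.5. Fits with the run as a block rest on that placing. The arrays of nintedanib mice 89 and 91 stood apart: their median correlation with the remaining arrays was 0.951 and 0.948, against 0.958 to 0.975 elsewhere. Of 16 hepatocyte markers only Asgr2 and Pck1 were measured. Their mean per mouse was 8.36 to 8.68 with nintedanib, 8.12 to 8.49 with vehicle and 8.06 to 8.30 in the controls. Against the controls, Pck1 stood at 0.46 with vehicle and 0.61 with nintedanib (limma, adjusted p = 0.0772 and 0.00702). Asgr2 stood at -0.17 and -0.06 (limma, adjusted p = 0.572 and 0.883).

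The RefSeq promoters of 5 members that the comparisons turn on are shown first (GRCm38.p6, 250 bases before to 50 after the first listed start). Of these, 3 differ between the runs. The other 2, Slc17a1 and Slc17a3, are neighbours on chromosome 13 whose differences from the controls have opposite signs. Slc17a1 did not pass the threshold over all vehicle mice. It passed for the nintedanib mice, and there in 7 of 11 other settings. Capitals mark an E-box (CACGTG, the element that the clock activators bind) or a D-box (TTATGTAA or TTATGCAA, the element of Dbp and its relatives), searched on both strands.
Slc20a1, chr2:129198523-129198822, plus strand: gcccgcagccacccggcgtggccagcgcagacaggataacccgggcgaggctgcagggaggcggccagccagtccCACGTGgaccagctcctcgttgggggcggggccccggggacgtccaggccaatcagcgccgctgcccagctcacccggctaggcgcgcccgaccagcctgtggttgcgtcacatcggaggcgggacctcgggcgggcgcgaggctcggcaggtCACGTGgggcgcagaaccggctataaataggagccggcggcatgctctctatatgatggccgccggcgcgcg
Slc5a6, chr5:31048513-31048812, minus strand: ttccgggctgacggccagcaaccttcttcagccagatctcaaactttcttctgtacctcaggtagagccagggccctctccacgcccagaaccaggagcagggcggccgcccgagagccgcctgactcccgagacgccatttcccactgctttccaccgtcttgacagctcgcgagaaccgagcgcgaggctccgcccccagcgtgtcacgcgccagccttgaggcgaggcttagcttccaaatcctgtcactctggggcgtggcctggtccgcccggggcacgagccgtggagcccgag
Slc45a3, chr1:131962665-131962964, plus strand: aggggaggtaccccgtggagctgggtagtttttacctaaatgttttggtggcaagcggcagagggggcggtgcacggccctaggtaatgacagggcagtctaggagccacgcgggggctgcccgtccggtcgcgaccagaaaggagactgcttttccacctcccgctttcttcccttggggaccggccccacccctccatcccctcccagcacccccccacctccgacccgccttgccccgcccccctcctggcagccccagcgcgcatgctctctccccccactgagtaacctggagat
Slc17a1, chr13:23868768-23869067, plus strand: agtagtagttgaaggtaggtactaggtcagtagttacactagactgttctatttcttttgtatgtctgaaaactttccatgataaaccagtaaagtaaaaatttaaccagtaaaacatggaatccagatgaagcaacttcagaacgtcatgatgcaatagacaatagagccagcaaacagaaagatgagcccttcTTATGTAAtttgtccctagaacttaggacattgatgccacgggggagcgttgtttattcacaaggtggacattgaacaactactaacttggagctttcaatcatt
Slc17a3, chr13:23839184-23839483, plus strand: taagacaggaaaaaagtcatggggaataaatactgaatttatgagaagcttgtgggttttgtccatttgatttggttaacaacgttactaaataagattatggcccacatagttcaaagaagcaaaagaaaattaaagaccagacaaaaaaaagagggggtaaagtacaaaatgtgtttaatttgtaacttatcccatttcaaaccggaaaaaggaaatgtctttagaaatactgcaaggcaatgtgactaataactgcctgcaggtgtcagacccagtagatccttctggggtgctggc
Slc20a1 held E-boxes at -175 and -22 bases from its start, and Slc17a1 a D-box at -55. Slc5a6, Slc45a3 and Slc17a3 held neither in these windows. RefSeq promoters were matched for 66 of the 92 members. Slc39a4, Slc22a7, Slc16a5, Slc16a7 and Slc6a8 were among the members without a match, so no sequence is shown for them. An E-box was in 13 of those 66 genes (19.7%), against 12.3% of 3119 genes at the same level and 8.09% of all 27025 genes with a promoter. A D-box was in 2 of the 66 (3.03%), Slc16a12 and Slc17a1, against 1.67% of genes at the same level and 1.98% of all genes. Counted by promoter, since a gene can have several, the shares were 7.15% and 1.66% of 32851. These matches describe letters and show no binding.

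In damaged liver given vehicle, 8 of the 92 carriers differed from healthy liver, 5 higher and 3 lower. The zinc importer Slc39a4, the creatine carrier Slc6a8, the amino acid exchanger Slc7a7 and the mitochondrial carriers Slc25a4 and Slc25a47 were higher, by 0.57 to 1.0 on the log2 scale. The organic anion carrier Slc22a7, the dicarboxylate carrier Slc13a3 and the urate and organic anion carrier Slc17a3 were lower, by 0.94 to 1.12. This test (limma, adjusted over all genes, threshold 0.05) passed 8.7% of the members, against 2.52% of all genes (1.55% higher and 0.971% lower) and 6.44% of genes at the same level. At an unadjusted p under 0.05 it was 25 members, or 27.2%, against 25.7% of genes at that level, so the members' shares lay near the background of expressed genes. The members' median difference was -0.02 with 42 above and 50 below 0, against a median of 0.00 for genes at the same level.

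**Figure D1:**
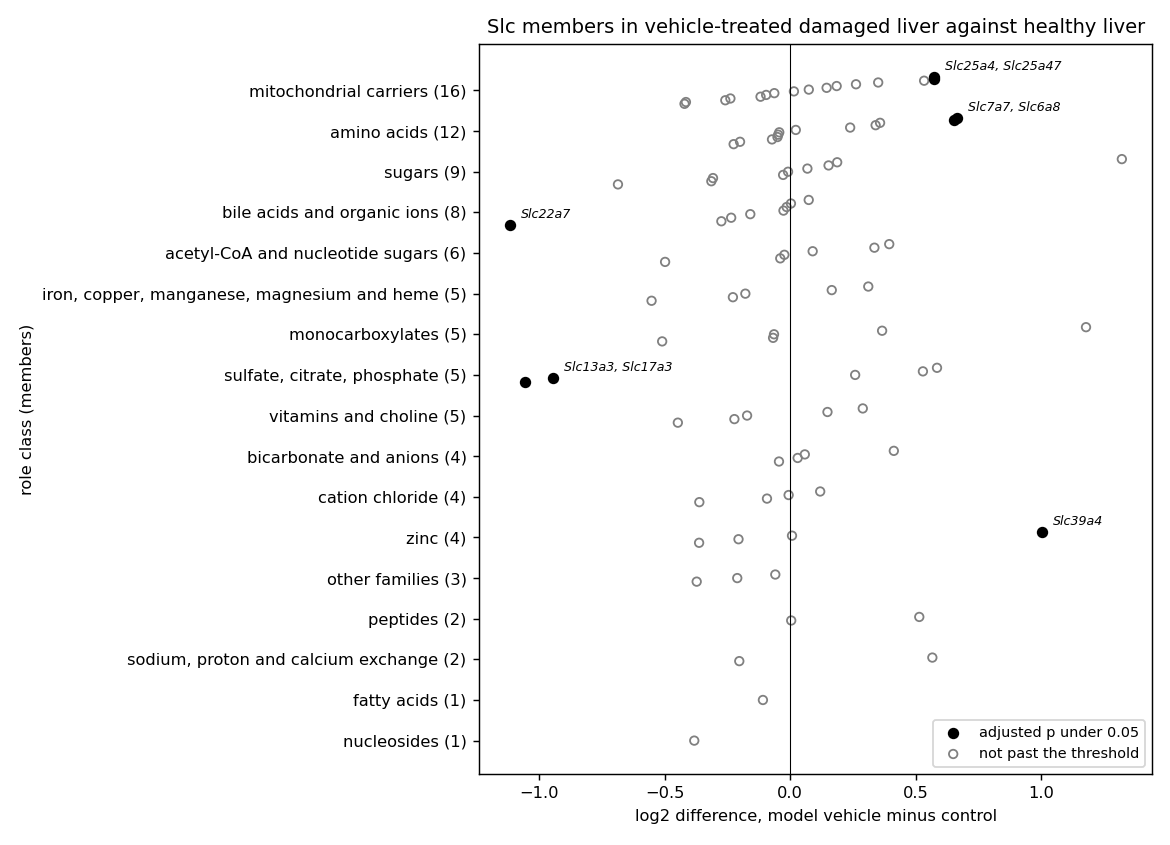
Log2 difference of vehicle-treated model liver minus healthy control for each of the 92 members, 1 row for each role class with its number of members (n = 9 and 3 mice). Filled points passed an adjusted p of 0.05; the 8 that did lie in 5 classes, at -0.94 or lower and at 0.57 or higher.

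Zinc carriers were represented by 4 members of the Slc39 importers. Slc39a4 (ZIP4), which brings zinc into the cell, had 6.90, 7.61 and 8.05 as the lowest, median and highest value of the vehicle mice. Controls 4, 49 and 50 had 6.78, 6.38 and 6.76, and single control values are given in this mouse order throughout. Every vehicle mouse lay above every control. The difference was 1.0 ± 0.18 (SE, limma adjusted p = 0.00220), and with only vehicle mice 76 to 81 it was 1.07 ± 0.15 (adjusted p = 0.00230). Slc39a4 passed under each of 12 other settings, at 0.88 to 1.07. The other members of the class, Slc39a8, Slc39a10 and Slc39a13, did not pass and ranged from -0.36 to 0.01.

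Among the 12 members of amino acid families, 2 were higher and 10 did not pass. Slc6a8, which takes up creatine, had 4.59, 4.85 and 5.17 in the vehicle mice (lowest, median, highest), against 3.77, 4.48 and 4.34 in the controls. The groups did not overlap, and the difference was 0.66 ± 0.15 (adjusted p = 0.0150). Slc7a7, the y+LAT1 light chain that exchanges cationic for neutral amino acids, had 3.91, 4.30 and 4.72, against 3.60, 4.03 and 3.38 in the controls. Control 49 lay within the range of the vehicle mice. Its difference was 0.65 ± 0.17 (adjusted p = 0.0304), and its control mean of 3.67 was under the level that admits a member. The members that did not pass lay between -0.22 and 0.36, among them the arginine carrier Slc7a2 at 0.36 ± 0.17 (adjusted p = 0.343).

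The mitochondrial carriers were the class with most members, 16, of which 2 were higher and 14 did not pass. Slc25a4, which exchanges ADP for ATP across the inner membrane, had 6.12, 6.49 and 6.72 in the vehicle mice, against 5.61, 6.18 and 5.78 in the controls. Control 49 lay within the vehicle range, and the difference was 0.57 ± 0.13 (adjusted p = 0.0165). Slc25a47, a carrier found mainly in liver, had 11.05, 11.27 and 11.59, against 10.53, 10.74 and 10.95 in the controls. All 9 vehicle mice were above the 3 controls, by 0.57 ± 0.15 (adjusted p = 0.0293). The remaining mitochondrial members lay between -0.42 and 0.53.

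The 8 members for bile acids and organic ions included 1 that was lower. Slc22a7 (OAT2), which takes organic anions into hepatocytes, had 6.13, 7.19 and 7.81 in the vehicle mice, against 8.47, 7.90 and 8.14 in the controls. No vehicle mouse reached a control value, and the difference was -1.12 ± 0.27 (adjusted p = 0.0240). With vehicle mice 76 to 81 alone it was -1.05 ± 0.25 (adjusted p = 0.0445). The other 7 ranged from -0.27 to 0.07.

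Of the 5 members of the sulfate, citrate and phosphate families, 2 were lower and 3 did not pass. Slc17a3 (NPT4), known for urate and organic anion export, had 7.33, 7.79 and 8.16 in the vehicle mice, against 9.01, 8.36 and 8.80 in the controls. The groups were separate, and the difference was -0.94 ± 0.19 (adjusted p = 0.00440). Its chromosome 13 neighbour Slc17a1 (NPT1), also a urate and phosphate carrier, had 6.54, 7.03 and 7.47, against 6.58, 6.40 and 6.26 in the controls. Vehicle mice of the later run (6.59, 6.54 and 6.79) lay nearest to the controls, and the difference over all vehicle mice was 0.59 ± 0.18 (adjusted p = 0.0901). With vehicle mice 76 to 81 alone Slc17a1 was higher by 0.77 ± 0.13 (adjusted p = 0.00817) and Slc17a3 lower, at -0.79 ± 0.16 (adjusted p = 0.0216). Slc13a3 (NaDC3), which takes up dicarboxylates with sodium, had 3.67, 4.22 and 5.42, against 6.12, 5.17 and 4.87 in the controls. Vehicle mouse 80 lay among the controls. The difference was -1.06 ± 0.29 (adjusted p = 0.0451), and it missed the threshold in 7 of 12 other settings, among them the fit with the run as a block (-0.99, adjusted p = 0.0784).

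**Figure D2:**
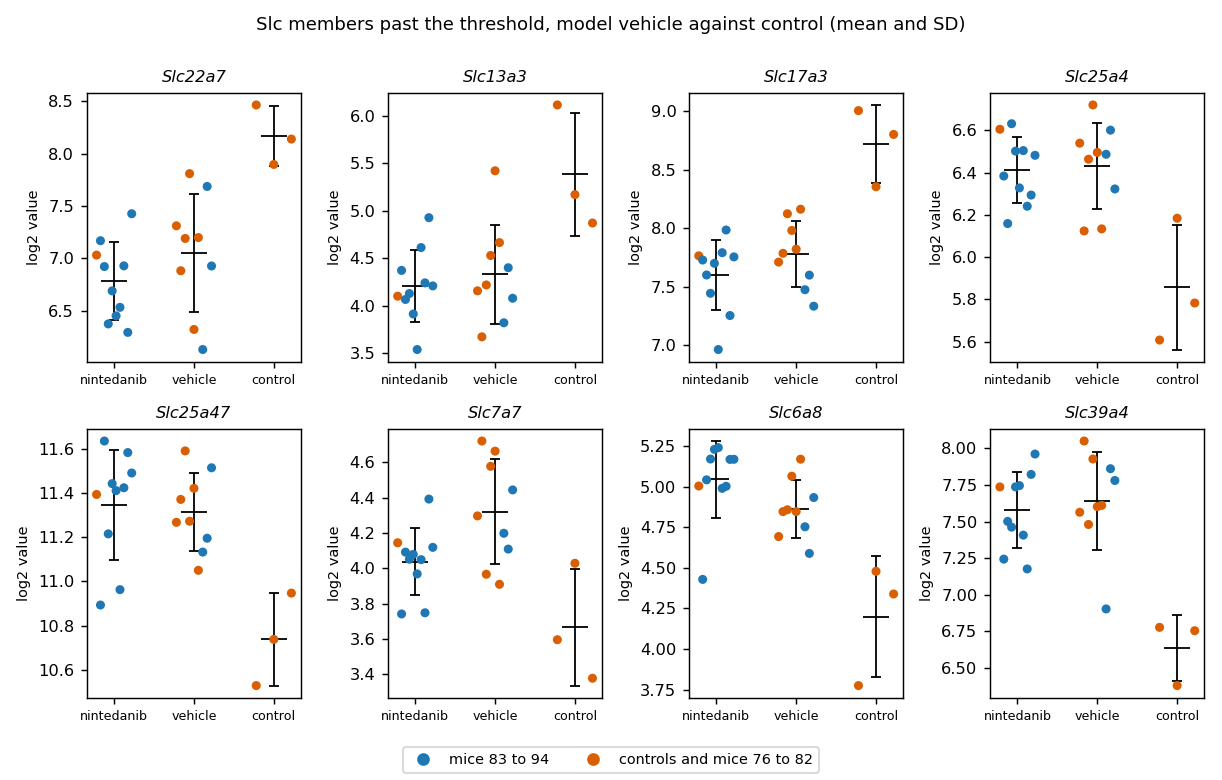
Log2 value of each mouse for the 8 members that differed between vehicle-treated model liver and healthy controls, with nintedanib-treated mice at the left; points are mice (n = 10, 9 and 3), bars the mean and SD, and colour the run of mouse numbers. The 3 controls lie above the model mice for Slc22a7 and Slc17a3 and mostly at the low end for the 5 genes that were higher.

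In the remaining 12 role classes with members no gene passed this test (limma; 10 members at an unadjusted p under 0.05), and the member with the smallest p in each class follows. Slc5a6, which carries biotin and pantothenate although its family is that of sodium and glucose cotransporters, stood at 1.32 ± 0.41 (adjusted p = 0.0901). Slc16a5, a monocarboxylate carrier, stood at 1.18 ± 0.44 (adjusted p = 0.180). Both had control means under 4, and both differ between the runs, as given further on. Slc8b1, the mitochondrial sodium and calcium exchanger, stood at 0.57 ± 0.17 (adjusted p = 0.0772) with every vehicle mouse above the controls. The Golgi nucleotide sugar carrier Slc35b4 (-0.50 ± 0.15, adjusted p = 0.0742) and the sodium, potassium and chloride cotransporter Slc12a2 (-0.36 ± 0.12, adjusted p = 0.116) also had groups that did not overlap. The groups were separate for 8 members in all, 8.7%, against 10.3% of genes at the same level. The magnesium carrier Slc41a2 (-0.55 ± 0.22), the nucleoside carrier Slc29a1 (-0.38 ± 0.15), the vitamin C carrier Slc23a1 (-0.45 ± 0.22) and the anion exchanger Slc26a6 (0.41 ± 0.21) had adjusted p of 0.215 to 0.375. The lysosomal peptide carrier Slc15a3 (0.52 ± 0.26), Slc18b1 (-0.37 ± 0.21) and the fatty acid carrier Slc27a4 (-0.11 ± 0.16) had adjusted p of 0.391 to 0.848.

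The counts depended on single controls. For the fits without a control, and with vehicle mice 76 to 81 alone, the share of all genes that passed was not counted. Those counts describe the members only. Without control 4 only Slc39a4 passed, without control 50 it was 5 members and without control 49 it was 6. With vehicle mice 76 to 81 alone, placed in the same run as the controls, 8 members passed (limma). Among them were Slc39a4, Slc6a8, Slc25a47, Slc22a7, Slc17a3 and Slc17a1. The others were the fructose carrier Slc2a5 (-0.57, adjusted p = 0.0410) and the vitamin C carrier Slc23a1 (-0.59, adjusted p = 0.0318), both lower. Slc7a7, Slc25a4 and Slc13a3 then stood at 0.69, 0.55 and -0.94, with adjusted p of 0.111, 0.109 and 0.180. Markers of several other cell types moved with the same contrast. The stellate cell and fibroblast markers, 8 of 10 measured, averaged 5.56 to 6.07 per mouse in the vehicle group and 4.87 to 5.07 in the controls, and 3 of them were higher (Col1a2, Col3a1 and Lum). The macrophage markers, 10 of 12 measured, averaged 4.97 to 5.54 and 4.51 to 4.66, with Gpnmb higher. Of these, 5 had an unadjusted p under 0.05 (limma), while Clec4f and Timd4 stood at -0.01 and 0.02. The neutrophil markers, 5 of 6 measured, averaged 4.45 to 5.05 and 3.57 to 4.12, with S100a8 and S100a9 higher. The endothelial markers, 6 of 8 measured, averaged 5.15 to 5.62 and 4.74 to 4.98, with Pecam1 and Lyve1 higher. The B and plasma cell markers, 5 of 6 measured, averaged 3.55 to 4.08 and 3.12 to 3.31, with Ms4a1 and Jchain higher. Of the T and NK cell markers, 8 of 8 measured and all with a mean under 4, Klrd1 was higher. The bile duct markers, 7 of 7 measured, and the erythroid markers, 6 of 6 measured, had median differences of 0.03 and -0.10. None of them passed (limma), with 2 and 1 at an unadjusted p under 0.05. The part of these cell types in the carrier differences was not tested.

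Nintedanib was set against vehicle in damaged liver to ask what the drug changed there. Over all arrays 2 of 92 carriers were higher and none was lower: the monocarboxylate carrier Slc16a7 by 0.53 and the folate carrier Slc19a1 by 0.47. That is 2.17% of the members, against 0.687% of all genes (0.411% higher and 0.276% lower) and 2.27% of genes at the same level. At an unadjusted p under 0.05 it was 24 members, 26.1%, against 21.8% of genes at that level. No member's groups were separate, against 0.206% of genes at that level.

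Slc16a7 (MCT2), which carries pyruvate, lactate and ketone bodies, had 6.55, 6.93 and 7.36 in the nintedanib mice (lowest, median, highest), against 6.16, 6.42 and 6.74 in the vehicle mice. Only the lower nintedanib values and the upper vehicle values overlapped. The difference was 0.53 ± 0.11 (adjusted p = 0.0214). With the run as a block it was 0.36 ± 0.13 (p = 0.00941, adjusted p = 0.722), and within mice 83 to 94, with 9 nintedanib and 3 vehicle mice, it was 0.41 ± 0.16 (p = 0.0210, adjusted p = 0.955). Slc19a1, the reduced folate carrier, had 4.75, 5.30 and 5.60, against 4.50, 4.69 and 5.27 in the vehicle mice. Its lowest nintedanib value was that of mouse 82, of the earlier run. The difference was 0.47 ± 0.11 (adjusted p = 0.0352), 0.27 ± 0.12 once the run was a block (adjusted p = 0.958) and 0.36 ± 0.14 in mice 83 to 94 alone (adjusted p = 0.955). Slc19a1 passed in 4 of 9 other settings, and it also missed the threshold without the arrays of mice 89 and 91, with each array centred on its median and with only the arrays of the groups compared.

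Among markers of other cell types, only the B and plasma cell list held a gene past the threshold. The macrophage, stellate cell and fibroblast, bile duct, T and NK cell, neutrophil and erythroid lists had median differences of -0.07 to 0.09. None of their genes passed (limma), with 2, 1, 1, 1, 0 and 1 at an unadjusted p under 0.05. The plasma cell gene Jchain was lower in the nintedanib mice, at -0.73 ± 0.17 (adjusted p = 0.0475), and the B and plasma cell markers averaged 3.17 to 3.63 per mouse in the nintedanib group and 3.55 to 4.08 in the vehicle group. The endothelial markers averaged 4.90 to 5.29 and 5.15 to 5.62, with a median difference of -0.24. None of the 6 measured passed (limma; Pecam1, Kdr and Tek at an unadjusted p under 0.05). With the run as a block Jchain stood at -0.47 (adjusted p = 0.957). The part of these cells in the carrier differences was not tested.

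With the run as a block no member passed (limma; 9 members at an unadjusted p under 0.05, or 9.78%, against 8.84% of genes at the same level), while 6 of all genes did, or 0.0448%. Within mice 83 to 94 no member passed and 0% of all genes did, and 8 members had an unadjusted p under 0.05, or 8.7%, against 8.66% of genes at the same level. The members with the smallest p under the block were named after their values were seen and did not pass the adjustment. Slc50a1, a sugar carrier, had 3.85, 4.24 and 4.84 in the nintedanib mice, against 4.50, 4.87 and 5.06 in the vehicle mice. Its differences were -0.48 ± 0.12 over all arrays, -0.55 ± 0.15 once the run was a block (adjusted p = 0.421) and -0.56 ± 0.18 in mice 83 to 94 alone (adjusted p = 0.882). Slc25a51, which brings NAD into mitochondria, had 6.80, 6.95 and 7.85, against 6.44, 6.59 and 6.92 in the vehicle mice. Its differences were 0.49 ± 0.13, 0.47 ± 0.16 and 0.56 ± 0.21 in the same order, so they moved little with the run. Slc25a32, the mitochondrial folate and FAD carrier, stood at 0.37 ± 0.09, 0.34 ± 0.12 and 0.32 ± 0.15. The lysosomal histidine and peptide carrier Slc15a4 stood at 0.50 ± 0.13, 0.37 ± 0.15 and 0.44 ± 0.16.

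**Figure D3:**
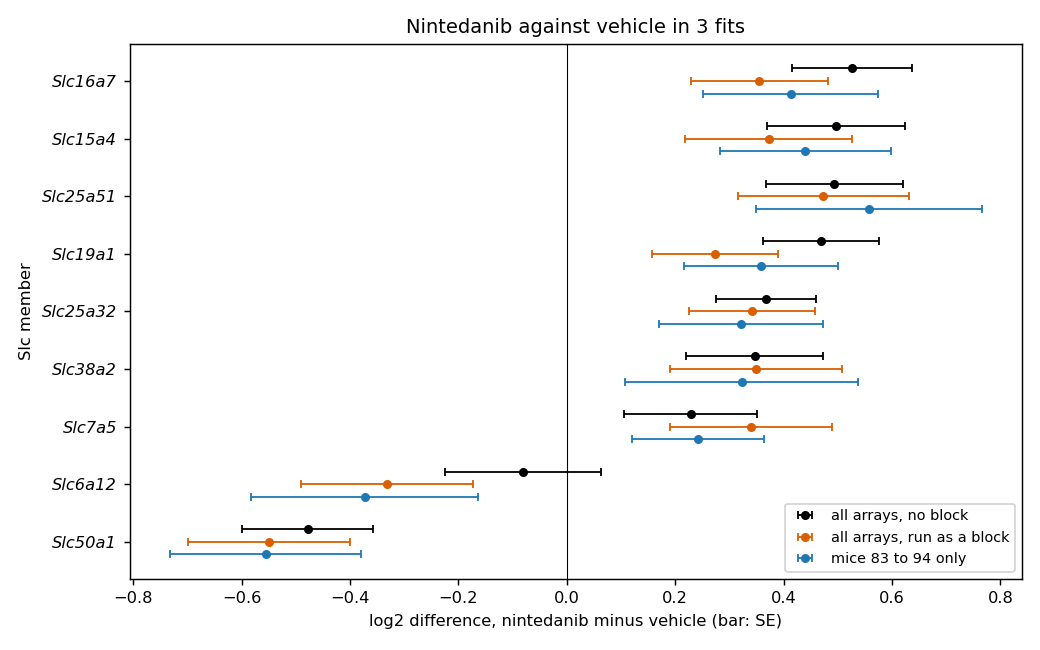
Log2 difference of nintedanib minus vehicle, with its SE, for the 9 members with an unadjusted p under 0.05 when the run is a block, in 3 fits (all arrays, 10 and 9 mice; all arrays with the block; mice 83 to 94, 9 and 3 mice). All 7 positive genes stay above 0 in the 3 fits, Slc50a1 stays near -0.5, and none passed the adjusted threshold in the last 2 fits.

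Several carriers turned their sign with the run. Slc5a6 stood at 0.60 ± 0.28 over all arrays (adjusted p = 0.446), -0.26 ± 0.19 with the block and -0.27 ± 0.19 within mice 83 to 94. Slc20a1, which takes up phosphate (PiT1), stood at 0.54 ± 0.21 (adjusted p = 0.321), -0.09 ± 0.16 and -0.31 ± 0.19. Slc16a5 stood at 0.52 ± 0.30 (adjusted p = 0.589), -0.23 ± 0.27 and -0.45 ± 0.30. For the 8 members that differed between damaged and healthy liver, the nintedanib difference over all arrays lay between -0.28 and 0.18 and none passed.

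The same carriers differed between mice of 1 group. Among vehicle mice, 92 to 94 were set against 76 to 81, and 4 of 92 members passed, 3 higher and 1 lower. This is 4.35% of the members, against 0.806% of all genes (0.455% higher and 0.351% lower) and 2.63% of genes at the same level, and 21 members (22.8%) had an unadjusted p under 0.05, against 17.6%. Slc20a1 had 6.95, 6.91 and 7.36 in mice 92 to 94, against a lowest, median and highest value of 5.48, 5.70 and 5.96 in mice 76 to 81. The later mice were all above the earlier ones, by 1.36 ± 0.19 (adjusted p = 0.000437). Slc5a6 had 5.44, 6.04 and 5.94, against 3.36, 4.42 and 4.64. It was higher by 1.53 ± 0.31 (adjusted p = 0.0133), again with no overlap.

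Slc16a5 had 6.57, 5.17 and 5.73 in mice 92 to 94, against 3.60, 4.15 and 5.17 (lowest, median, highest) in mice 76 to 81. Mice 93 and 78 were alike at 5.17, and the difference was 1.56 ± 0.35 (adjusted p = 0.0256). Slc45a3, assigned to a family of sugar carriers, had 5.56, 4.94 and 5.23, against 6.15, 6.58 and 6.92. It was lower by 1.3 on the log2 scale (SE 0.28, adjusted p = 0.0204) with separate groups. Nintedanib mouse 82, of the earlier run, had 4.03 for Slc5a6 and 6.96 for Slc45a3, while nintedanib mice 83 to 91 had 5.12 to 5.96 and 5.05 to 6.08. The sole nintedanib mouse of the earlier run thus lay outside the range of the other 9 for both genes. For Slc20a1 it had 6.23, within the 6.17 to 7.16 of mice 83 to 91 and above the 5.96 that was highest in vehicle mice 76 to 81. For Slc16a5 it had 4.58, below the 4.69 to 5.88 of mice 83 to 91 and within the range of vehicle mice 76 to 81. Dbp (3.77 ± 0.44) and Arntl (-2.84 ± 0.39) differed in the same contrast, and their part in the carrier differences was not tested.

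**Figure D4:**
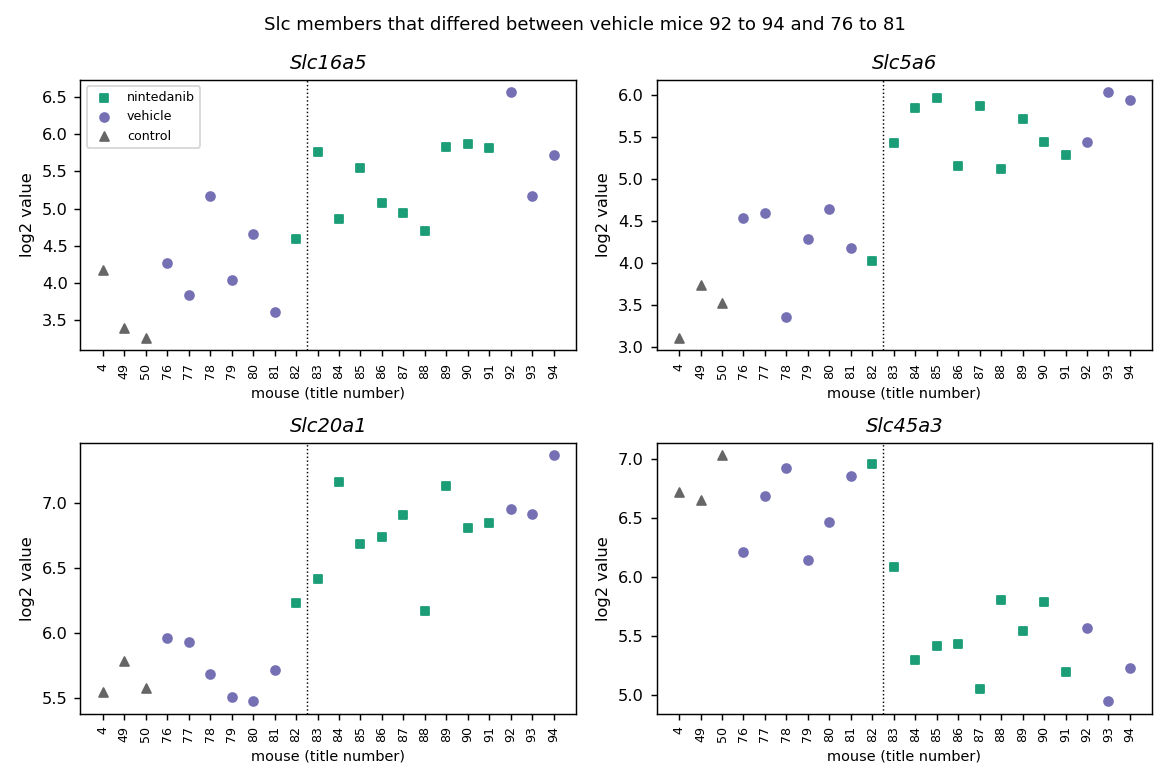
Log2 value of each mouse, ordered by mouse number, for the 4 members that differed between vehicle mice 92 to 94 and 76 to 81; the dotted line separates the runs. In vehicle mice Slc20a1, Slc5a6 and Slc16a5 are mostly higher right of the line and Slc45a3 lower. Only 1 nintedanib mouse lies left of the line, and its Slc20a1 value is within the range of the other nintedanib mice.

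Without mouse 92, 93 or 94 it was 2, 2 or 1 members past the threshold. The share of all genes that passed was not counted for these fits. Slc20a1 passed under each of 9 other settings at 1.22 to 1.44. The groups were separate for 18 members, or 19.6%, against 14.3% of genes at the same level. Among those that did not pass were the mitochondrial carrier Slc25a30 at -1.32 ± 0.43 (adjusted p = 0.243), the lysosomal carrier Slc46a3 at 0.71 ± 0.18 (adjusted p = 0.0783) and Slc16a12, a creatine and monocarboxylate carrier, at 0.77 ± 0.23 (adjusted p = 0.153). The glucose 6-phosphate carrier Slc37a4 stood at 0.49 ± 0.15 and Slc7a2 at 0.49 ± 0.15 (adjusted p = 0.177 and 0.209). These were also chosen after their values were seen.

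Nintedanib-treated damaged liver against healthy liver gave the most carriers past the threshold, 23 of 92, with 15 higher and 8 lower. This is 25% of the members, against 5.85% of all genes (2.87% higher and 2.99% lower) and 15.5% of genes at the same level. It shares the controls with the vehicle comparison, and 9 of the 10 nintedanib mice are of the later run while all controls were placed in the earlier one. With the run as a block 3 members were left, Slc39a4, Slc6a8 and Slc17a1 (3.26%, against 5.31% of genes at the same level). Without control 4, 49 or 50 it was 13, 15 or 11 members, and the share of all genes that passed was not counted for these fits.

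The 8 lower members came from several role classes. Slc22a7 had 6.29, 6.81 and 7.43 in the nintedanib mice, against 8.47, 7.90 and 8.14 in the controls, and was lower by 1.39 on the log2 scale (SE 0.27, adjusted p = 0.00207). Slc17a3 had 6.96, 7.71 and 7.99, against 9.01, 8.36 and 8.80, and differed by -1.12 ± 0.19 (adjusted p = 0.000371). Neither gene's groups overlapped. Slc13a3 had 3.54, 4.17 and 4.93, against 6.12, 5.17 and 4.87, with a difference of -1.18 ± 0.28 (adjusted p = 0.0115). Slc41a2 differed by -0.83 ± 0.22 (adjusted p = 0.0210) and Slc39a8 (ZIP8), which imports zinc and manganese, by -0.61 ± 0.15 (adjusted p = 0.0119). Slc25a45, Slc35b4 and Slc12a2 differed by -0.59, -0.56 and -0.39. With the block the 8 differences lay between -0.24 and -1.18, and none of them passed.

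Among the 15 higher members, Slc5a6, Slc16a5 and Slc20a1 differed by 1.93 ± 0.41, 1.69 ± 0.43 and 1.07 ± 0.31. These are the genes that differ between the runs, and with the block they stood at 0.55 ± 0.28, 0.50 ± 0.41 and 0.08 ± 0.24. Slc39a4 had 7.18, 7.62 and 7.96 in the nintedanib mice, against 6.78, 6.38 and 6.76 in the controls, and was higher by 0.94 ± 0.18 (adjusted p = 0.00183). With the block its difference was 1.11 ± 0.23 (adjusted p = 0.00914). Slc6a8 had 4.43, 5.11 and 5.24, against 3.77, 4.48 and 4.34, and was higher by 0.85 ± 0.15 (adjusted p = 0.000932), or 0.93 ± 0.20 with the block (adjusted p = 0.0104). Only nintedanib mouse 83 lay within the range of the controls.

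Slc16a7, Slc7a2 and Slc19a1 were higher by 0.89 ± 0.16, 0.81 ± 0.17 and 0.76 ± 0.15, each with every nintedanib mouse above the controls. With the block they stood at 0.62 ± 0.19, 0.38 ± 0.17 and 0.45 ± 0.17 (adjusted p = 0.0990, 0.370 and 0.253). The other 7 higher members were Slc25a32, Slc17a1, Slc25a47, Slc37a4, Slc25a36, Slc25a4 and the heme carrier Slc48a1, at 0.46 to 0.63, some of them named after their values were seen. Slc17a1 had 6.42, 7.17 and 7.32 in the nintedanib mice, against 6.58, 6.40 and 6.26 in the controls, and its difference was 0.63 ± 0.18, or 0.95 ± 0.21 with the block (adjusted p = 0.0138). Slc5a6, Slc16a5, Slc25a36 and Slc12a2 each had a group mean under the level that admits a member.

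**Figure D5:**
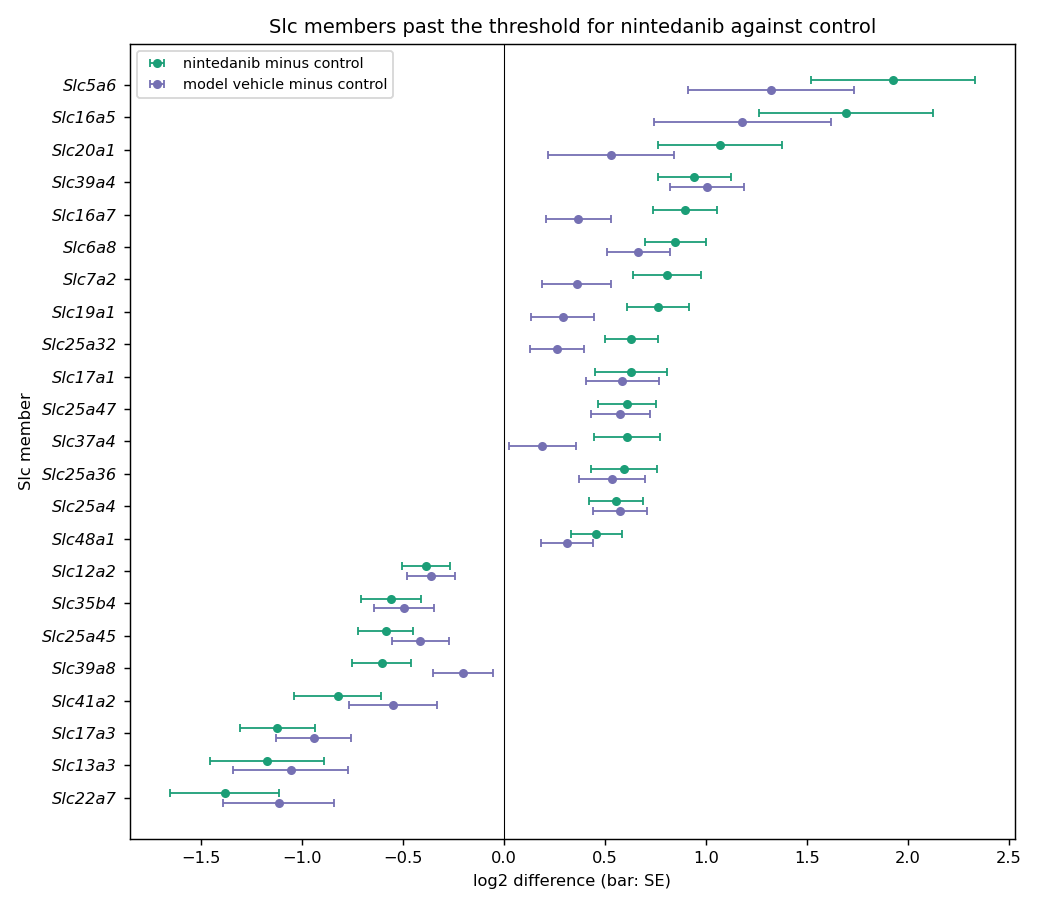
Log2 difference from healthy control, with its SE, of the 23 members that passed for nintedanib-treated model liver (n = 10 and 3), beside the same genes for vehicle-treated model liver (n = 9 and 3). Both comparisons use the same 3 controls. Differences run from -1.39 to 1.93 for nintedanib.

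Carriers and pumps without an Slc name were read as related genes, and 23 of a list of 36 were measured. The list was chosen with earlier results of these data known, so it is no background for the members. In vehicle-treated model liver 4 were higher and none lower than in controls (limma; 10 at an unadjusted p under 0.05): the lysolipid carrier Mfsd2a (1.56 ± 0.24), the peroxisomal fatty acid carrier Abcd2 (1.42 ± 0.20), the organic anion pump Abcc4 (0.96 ± 0.18) and the mitochondrial Ucp2 (0.45 ± 0.12). The list's median was 0.07, against -0.02 for all genes. The same test passed 2.52% of all genes and 6.44% of genes with a mean of 4 or more. An unadjusted p under 0.05 was found for 25.7% of the latter. In the list, 5 of the 23 had a mean under 4. For nintedanib against vehicle, 0.687% of all genes and 2.27% of genes with a mean of 4 or more passed (limma). Of the list, Mfsd2a (0.76 ± 0.17, adjusted p = 0.0232) and the sodium pump subunit Atp1b1 (0.53 ± 0.13, adjusted p = 0.0477) were higher. Neither passed with the run as a block, where Mfsd2a stood at 0.57 (adjusted p = 0.651) and Atp1b1 at 0.38 (adjusted p = 0.845), nor within mice 83 to 94 (adjusted p = 0.955 for both). Of 18 regulators of liver carriers, 10 were measured. None passed between vehicle-treated model and control liver (limma; 2 at an unadjusted p under 0.05), and the nearest was the xenobiotic receptor Nr1i3 at -0.68 ± 0.19 (adjusted p = 0.0541). It was lower with the run as a block (-0.79, adjusted p = 0.0176) and with vehicle mice 76 to 81 alone (-0.76, adjusted p = 0.0362).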

How the data were processed

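RNA from 22 livers was measured on Affymetrix HT MG-430 arrays, 1 array for each mouse, per the labels. The deposited log2 values were made by the authors with the robust multiarray average (RMA), with custom probe sets of 1 for each Entrez gene, per the series' design text, while the version of the software stays unstated there. RMA normalizes quantiles and compresses differences near the background.

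Symbols were taken by Entrez ID from RefSeq (GRCm38.p6), which named 13242 of 13392 genes. No filter was applied to genes or arrays. The fit covered all genes (limma 3.58.1 under R 4.3.3, functions lmFit and eBayes, with 3 group means, 19 residual degrees of freedom; 4 means and 18 for the runs) and was 2-sided, with Benjamini-Hochberg adjustment over all genes and a threshold of 0.05. The script was tested on simulated data. Nothing in the labels says how arrays were batched, and the number of arrays, above all the 3 controls, limits the precision. The members and lists were chosen with earlier results of these data known. Named are up to 15 members past the threshold in each direction for vehicle against control and nintedanib against vehicle and up to 8 in the other comparisons, the member with the smallest p in each role class, and genes at the level's edge; others are said to be chosen after their values were seen. Role classes follow the Slc family number. The alternatives were filters, normalizations, variance models, array weights, the run as a block, left-out arrays, a stricter threshold and other levels.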

Additional observations from a re-analysis of the deposited data

Results flagged for a closer look

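In 76 groups of named members tested with Dixon's criterion, 4 held a mouse far from the others, and chance gives about 1 in 20 such groups. Slc5a6 in nintedanib mouse 82, of the earlier run, was 4.03, with the next mouse at 5.12. Slc6a8 in nintedanib mouse 83 was 4.43, with the next at 4.99. Slc39a4 in vehicle mouse 92 was 6.90, with the next at 7.48. Slc12a2 in vehicle mouse 93 was 3.66, with the next at 3.94. Whether the nintedanib effects differ between the 2 runs could not be decided, because the earlier run holds only 1 nintedanib mouse.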

How the results depend on the processing

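Each comparison was recomputed with 1 choice changed. Apart from the block and the fit within mice 83 to 94, the share of all genes that passed was not counted for the changed settings. The counts below therefore describe the members only. For vehicle-treated model against control liver, 8 members passed; it was 2 at an adjusted p under 0.01, 5 with a level of 5 or more, 1 to 6 when a control was left out, and 7 to 10 in the other settings. For nintedanib against vehicle, 2 passed; it was 1 with each array centred on its median (Slc25a51, while Slc16a7 and Slc19a1 both missed), 4 with quantile normalization repeated, 5 with array weights, 0 with the run as a block, 0 with only mice 83 to 94, 0 at an adjusted p under 0.01 and 1 with a level of 5 or more. For nintedanib against control, 23 passed; it was 3 with the block, 10 at an adjusted p under 0.01, 15 with a level of 5 or more and 11 to 15 when a control was left out. For vehicle mice 92 to 94 against 76 to 81, 4 passed; it was 7 with array weights, 1 at an adjusted p under 0.01, 2 with a level of 5 or more and 1 to 2 when one of the 3 later mice was left out. A stricter threshold or level passes fewer by construction; for the other changes the cause was not tested.

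The sign turned for nintedanib against vehicle with the run as a block in Slc5a6 (-0.26), Slc16a5 (-0.23), Slc20a1 (-0.0852), Slc12a2 (0.0371), Slc17a3 (0.0344), Slc35b4 (0.0775), Slc39a4 (0.0425) and Slc41a2 (0.0948). Within mice 83 to 94 it turned in Slc5a6 (-0.27), Slc16a5 (-0.45), Slc20a1 (-0.31), Slc12a2 (0.0766), Slc13a3 (0.12), Slc17a3 (0.11), Slc35b4 (0.20), Slc39a4 (0.0468) and Slc41a2 (0.12). Array weights turned Slc12a2 (0.0152) and Slc25a4 (0.0042), and leaving out mice 89 and 91 turned Slc12a2 (0.0416). None of these genes passed in that comparison under any setting that turned its sign. Leaving out a control moved Slc27a4, vehicle-treated model against control, between -0.3358 and 0.056 (without control 4). Of all values of named members under the alternatives, 609 kept direction and side of the threshold, 74 no longer passed and 3 newly passed. No paired analysis was possible because the replicate numbers are mouse numbers and no 2 groups share one.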

Other observations

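Of the 179 Slc genes below the level, 2 were lower in vehicle-treated model liver than in controls (limma). They were the proline carrier Slc6a7 (-0.67) and the organic cation carrier Slc22a3 (-0.72). Of all genes, expressed ones included, 0.971% were lower. In nintedanib-treated model liver against controls 1 was higher, Slc43a2 (0.36), and 4 were lower, Slc6a7 (-0.59), Slc22a3 (-0.57), Slc12a5 (-0.62) and Slc25a35 (-0.50). Of all genes, 2.87% were higher and 2.99% lower in that comparison. These 5 carriers averaged under 4 in every group and were named after their values were seen.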
